A study of Mus musculus with 24 samples.

Results

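The 10 genes described here are those of the cyclins and cyclin-dependent kinases (CDKs) that run the cell cycle: the D cyclins *Ccnd1*, *Ccnd2* and *Ccnd3*, the E cyclins *Ccne1* and *Ccne2*, the A and B cyclins *Ccna2*, *Ccnb1* and *Ccnb2*, and the kinases *Cdk1* and *Cdk2*. They were chosen by gene symbol, and all 10 were found, each as 1 of the 49315 genes counted by mRNA sequencing in cultured mouse astrocytes after exposure to X-rays. The cells were primary astrocytes at passage 1 from the cortex of wild type C57BL/6J mouse embryos shortly before birth, and the embryos of a pregnant mouse were pooled, so that no value belongs to 1 animal. They were mock-irradiated (0 Gy) or exposed to 0.1 or 2 Gy X-rays and lysed 6 h or 24 h later, with 4 biological repeats for each of the 6 conditions and 24 libraries in all. RNA was polyA-selected total RNA of the whole culture, in which fewer cells in a cycle phase and less mRNA per cell cannot be told apart.

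Total counts per library ranged from 14742855 to 38194800, and the most abundant gene of a library took between 0.861% and 10.4% of its counts. The highest share was that of *Gm42418* in replicate 1 of the mock-irradiated cells at 24 h. The lowest was that of *Pea15a* in replicate 3 after 2 Gy at 24 h. Whether this difference touched the calls below was not tested. The 10 astrocyte markers examined were all detected and summed to between 2353 and 3412 CPM (counts scaled to library size), although *S100b* reached only 5.66 CPM. The 8 microglia markers were present as well. Their sum stood between 175 and 202 CPM in the 6 libraries of replicate 2 and between 1150 and 1827 CPM in the 18 libraries of replicates 1, 3 and 4, a difference that followed the replicate number at all 3 doses. Markers of other cells differed widely in level. The neuronal *Rbfox3* reached at most 0.887 CPM, the oligodendrocyte gene *Sox10* at most 2.81 CPM and the endothelial gene *Cldn5* at most 0.0698 CPM. In contrast, *Olig1*, *Map2*, *Stmn2* and *Col1a1* were found at no less than 105 CPM in every library. *Tubb3*, *Olig2* and *Pdgfrb* were at no less than 35.1, 59.2 and 45.5 CPM. The 7 neuronal markers summed to between 400 and 726 CPM. The 7 oligodendrocyte markers summed to between 288 and 815 CPM, and the 7 of fibroblasts and vessels to between 189 and 1039 CPM.

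Cyclins are the regulatory subunits that switch on CDKs, and each family rises and is destroyed at its own point of the cycle. D cyclins respond to growth factors and act with Cdk4 and Cdk6 in G1, where they start to inactivate the retinoblastoma protein and so release E2F transcription factors. E cyclins then drive Cdk2 at entry into S phase, cyclin A2 acts with Cdk2 in S phase and with Cdk1 in G2, and B cyclins drive Cdk1 into mitosis. In many cell types, genes of the A and B cyclins and *Cdk1* are read mainly in cycling cells and are shut off in resting cells through the DREAM complex, which binds CHR elements in promoters with CCAAT boxes close by. D cyclin mRNA, in contrast, is also abundant in cells that are not cycling, and astrocytes from young brain keep dividing in serum for some time in culture.

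RefSeq promoter sequences of GRCm38.p6 were at hand for 6 of the 10 genes, *Ccnb1*, *Ccnb2*, *Ccnd3*, *Ccne1*, *Cdk1* and *Cdk2*. In the 250 bases before the annotated start, 3 motifs were searched on both strands: the CHR element (TTTGAA or TTCGAA), the CCAAT box (CCAAT) and an E2F core (TTCCCGC or TTGGCGC). Of the 32851 mouse promoter windows of this length, 17.1% hold a CHR match, 33.8% a CCAAT match, 10.1% at least 2 CCAAT matches and 5.62% an E2F core match. *Ccnb2* holds 1 CHR match and 3 CCAAT boxes, and *Cdk1* holds 2 CHR matches, 3 CCAAT boxes and 1 E2F core match. *Ccnb1* holds 2 CCAAT boxes, the first of which overlaps an E2F core match, and no CHR match. *Cdk2* holds 1 CCAAT box and 2 E2F core matches. No match of the 3 motifs was found for *Ccne1* or in the upstream window of *Ccnd3*, and the window at the second annotated start of *Ccnd3* holds 1 CCAAT box. The windows of 3 genes whose mRNA moved together, *Ccnb2* (chr9:70421555-70421804, minus strand), *Cdk1* (chr10:69352939-69353162, minus strand) and *Ccnb1* (chr13:100786571-100786736, minus strand), are printed beside that of the D cyclin gene *Ccnd3* (chr17:47504801-47505050, plus strand), as far as they lie upstream of the gene, 5′ to 3′ and with every motif match in capitals. Since the printed stretch of *Cdk1* ends before the gene, it leaves out the CHR match nearest to the start, and that of *Ccnb1* leaves out its CCAAT box nearest to the start.
Ccnb2: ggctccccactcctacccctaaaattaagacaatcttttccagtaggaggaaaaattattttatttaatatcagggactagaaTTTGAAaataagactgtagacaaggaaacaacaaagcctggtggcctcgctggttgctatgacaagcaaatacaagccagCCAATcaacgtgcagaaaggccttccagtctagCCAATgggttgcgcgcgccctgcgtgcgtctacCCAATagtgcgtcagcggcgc
Cdk1: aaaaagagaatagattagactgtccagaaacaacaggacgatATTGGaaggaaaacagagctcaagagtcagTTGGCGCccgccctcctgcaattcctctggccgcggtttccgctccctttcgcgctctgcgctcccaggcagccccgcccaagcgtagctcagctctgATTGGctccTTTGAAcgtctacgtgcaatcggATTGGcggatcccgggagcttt
Ccnb1: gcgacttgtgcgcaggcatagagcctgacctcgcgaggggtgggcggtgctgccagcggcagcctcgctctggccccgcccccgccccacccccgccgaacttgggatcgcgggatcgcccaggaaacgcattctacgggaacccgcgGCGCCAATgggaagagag
Ccnd3: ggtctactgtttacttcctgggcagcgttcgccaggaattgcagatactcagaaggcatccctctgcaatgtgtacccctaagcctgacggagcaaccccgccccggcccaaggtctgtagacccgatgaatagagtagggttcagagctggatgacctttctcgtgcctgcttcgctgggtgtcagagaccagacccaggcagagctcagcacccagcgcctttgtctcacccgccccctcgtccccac

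Per length, the D cyclins *Ccnd1* and *Ccnd2* stood far above the other 8 genes. In mock-irradiated cells at 24 h, *Ccnd1* was at 276 ± 9.92 RPKM (counts per length and library size; mean ± SD, n = 4) and *Ccnd2* at 148 ± 47.2 RPKM, without overlap between the libraries of the genes. *Ccnd3* followed at 11.7 ± 3.55 RPKM, and *Cdk1*, *Cdk2*, *Ccna2*, *Ccnb2*, *Ccnb1* and *Ccne2* ran from 10.97 down to 6.17 RPKM, each overlapping its neighbour in the order. *Ccne1* was lowest at 3.48 ± 0.539 RPKM and overlapped *Ccne2*. At 6 h the mock-irradiated order was the same at the top, *Ccnb2* (13.7 ± 1.47 RPKM) stood in the third place, and *Ccne2* (3.67 ± 0.534 RPKM) was level with *Ccne1* (3.54 ± 0.521 RPKM), both below all other members. After 2 Gy at 24 h, *Ccnd3* at 12.6 ± 1.93 RPKM stood apart from *Cdk1* at 6.96 ± 0.902 RPKM, which it had overlapped in mock-irradiated cells. *Ccna2* was then at 3.67 ± 0.572 RPKM, and *Ccne1* and *Ccne2* at 2.11 ± 0.803 and 2.05 ± 0.488 RPKM.

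**Figure D1:**
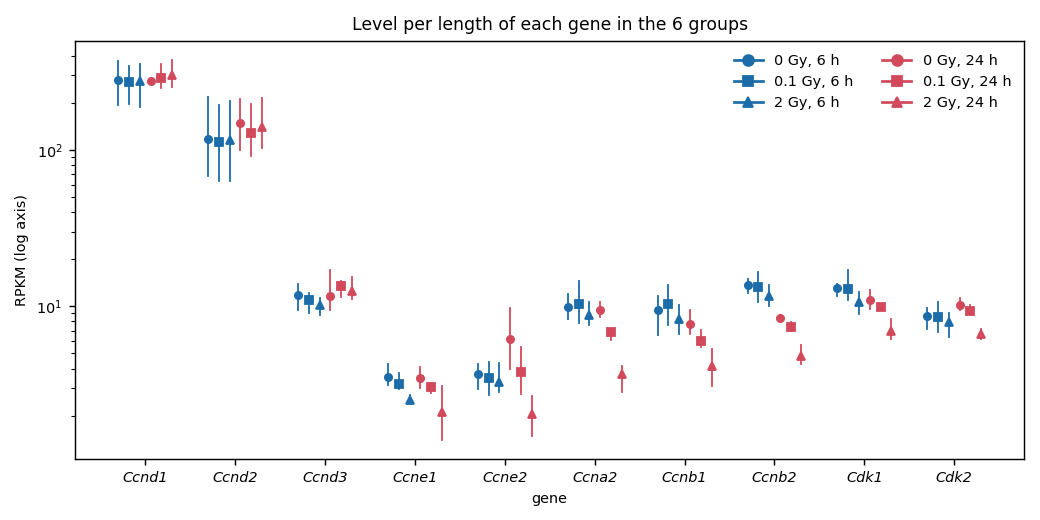
Level per length (RPKM, log axis) of the 10 genes in the 6 conditions; points are means of 4 libraries and lines run from the lowest to the highest library. *Ccnd1* and *Ccnd2* lie at 62.9 RPKM or more in every library, and the other 8 genes at 17.1 RPKM or less.

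Exposure to 2 Gy was compared with mock irradiation at 24 h to find which of these genes responded. The 3 A and B cyclins, the 2 E cyclins and the 2 kinases had lower means after 2 Gy, in all 4 pairs of libraries with equal number, while each of the 3 D cyclins had pairs on both sides of 0. In the unpaired edgeR fit none of the 10 genes had an adjusted p under 0.05, and neither had any other gene (0% of 15892 tested), while 7 of the 10 had an unadjusted p under 0.05 against 3.59% of all genes. The DESeq2 Wald test, also unpaired, called 6 of the 10 and 0.346% of 29803 genes. It was run on all genes with a count, so here and below its shares have a wider base than those of edgeR. Within a time, libraries of equal replicate number moved together, and once the number entered the fit as a block the same 7 genes fell at an adjusted p under 0.05, against 13.2% of all genes tested in both directions and 6.69% that were called lower. In 6 of the 10 genes the 2 Gy libraries all lay below the mock-irradiated ones, which held for 2.01% of all genes, and 7 of the 10 were lower in all 4 pairs of equal number, against 21.9% of all genes.

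*Ccna2*, the cyclin of S phase and G2, was at 40.2, 43.3, 34.7 and 35.4 CPM in replicates 1 to 4 of the mock-irradiated cells at 24 h. The libraries exposed to 2 Gy had 15.5, 17.0, 11.6 and 15.8 CPM. All 4 irradiated libraries lay far below the lowest control, at 39.0% of the control mean. The log2 fold change was −1.35 (SE 0.181) with an adjusted p of 0.163 in the unpaired fit, and −1.36 (SE 0.101) with an adjusted p of 0.00144 with the replicate block. The gene lies on chromosome 3 (36564865 to 36572150, minus strand, mm10). It shares 510 bases of exon with *Exosc9* on the other strand, whose counts came to 99.7% of those of *Ccna2* and whose log2 fold change was 0.04 (SE 0.146). The use of strand in counting is not given in the sources used here, so part of the *Ccna2* counts may belong to that gene.

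*Ccnb1*, a partner of Cdk1 at entry into mitosis, was at 32.9, 39.8, 29.3 and 28.0 CPM in mock-irradiated cells and at 19.5, 22.5, 13.1 and 15.3 CPM after 2 Gy. The groups did not overlap, and replicate 2 was highest in both. The log2 fold change was −0.88 (SE 0.223, adjusted p = 0.510 unpaired, 0.00298 with the replicate block). *Ccnb2*, the other mitotic B cyclin, was at 13.6, 12.8, 12.5 and 12.6 CPM in controls and at 6.54, 7.13, 8.62 and 7.12 CPM after 2 Gy. Here the controls lay within little more than 1 CPM of each other, and every irradiated library was below them. The log2 fold change was −0.80 (SE 0.172, adjusted p = 0.321 unpaired, 0.00990 with the replicate block). A processed copy, *Ccnb2-ps*, had 32 to 130 counts per library, and its log2 fold change was 0.01 (SE 0.274).

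Of the E cyclins, which activate Cdk2 at the start of S phase, *Ccne2* had the log2 fold change farthest from 0 of the 10 genes. Whether it fell more than *Ccna2* was not tested. It was at 21.1, 34.3, 13.8 and 17.0 CPM in mock-irradiated cells and at 7.56, 9.27, 5.18 and 6.72 CPM after 2 Gy. Replicate 2 was again the highest library of each group, and the groups did not overlap. The irradiated mean was 33.3% of the control mean, with a log2 fold change of −1.58 (SE 0.323, adjusted p = 0.274 unpaired) and of −1.54 (SE 0.124, adjusted p = 0.00144) with the replicate block. *Ccne2* shares 609 bases of exon with *Ints8* on the other strand, which holds more counts than *Ccne2* itself and had a log2 fold change of −0.30 (SE 0.254). Part of the *Ccne2* counts may likewise belong to that gene.

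*Ccne1* was at 8.01, 10.2, 10.8 and 8.10 CPM in mock-irradiated cells and at 3.75, 3.97, 8.19 and 6.53 CPM after 2 Gy. Replicates 1 and 2 lay clearly below the controls, but the irradiated replicate 3 lay within the control range, so that the groups overlapped. The log2 fold change was −0.72 (SE 0.284, adjusted p = 0.940 unpaired, 0.0333 with the replicate block).

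The kinase genes fell as well, with the smallest fold changes of the 7. *Cdk1*, the kinase of mitosis, was at 35.01, 39.5, 43.7 and 33.0 CPM in mock-irradiated cells and at 23.0, 21.2, 28.4 and 23.3 CPM after 2 Gy. *Cdk2*, the kinase of S phase, was at 23.0, 24.6, 27.4 and 24.1 CPM in controls and at 17.4, 15.4, 15.02 and 17.3 CPM after 2 Gy. For both kinases all irradiated libraries lay below all controls, at 63.5% and 65.7% of the control means. The log2 fold change was −0.65 (SE 0.160, adjusted p = 0.444 unpaired, 0.00937 with the replicate block) for *Cdk1* and −0.60 (SE 0.149, adjusted p = 0.465 unpaired, 0.0161 with the block) for *Cdk2*. Whether they fell less than the cyclins was not tested.

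**Figure D2:**
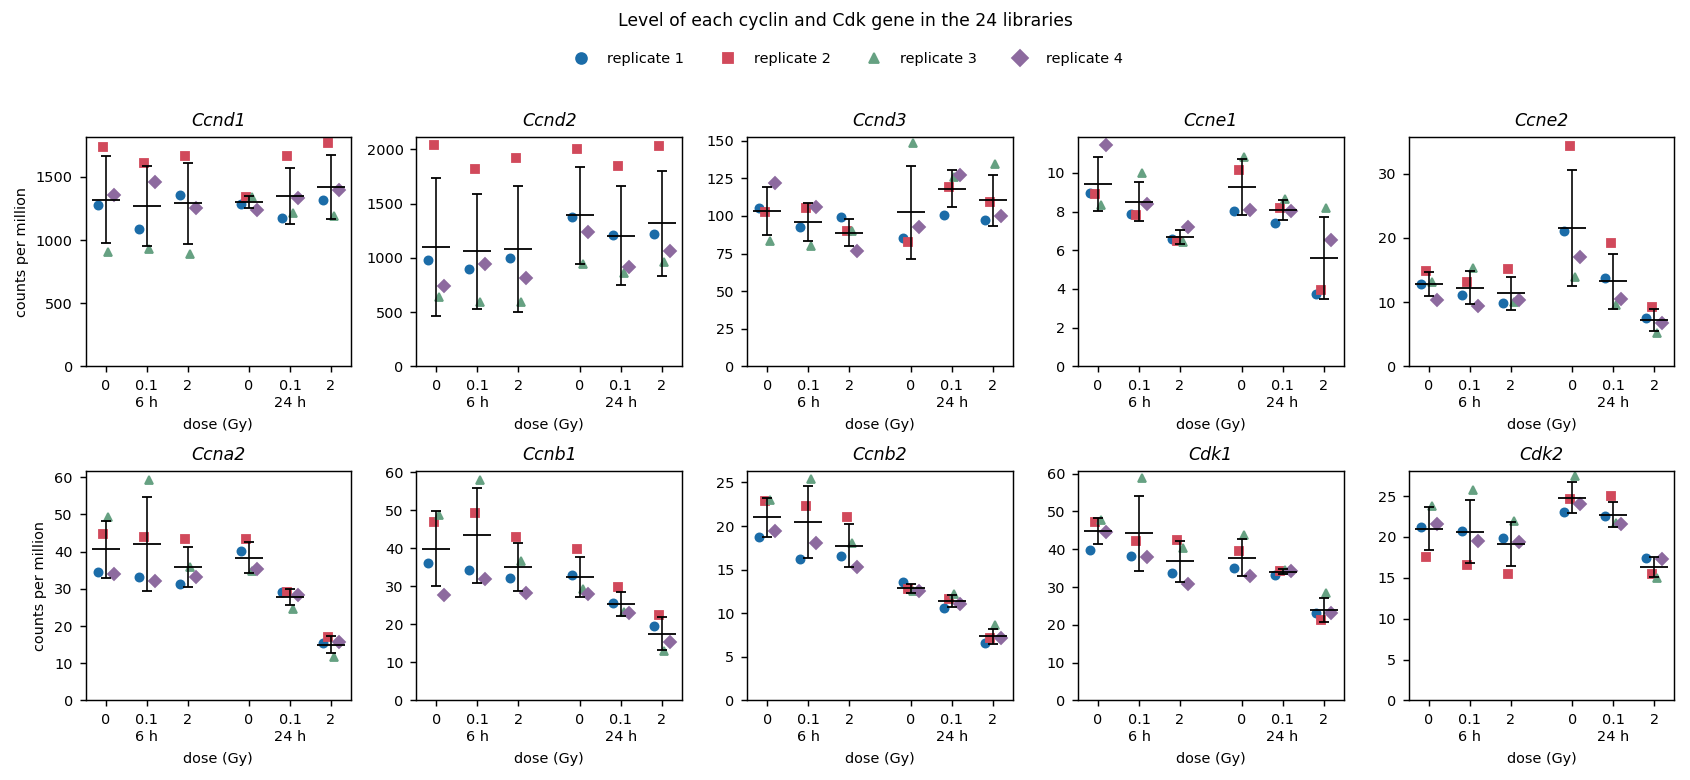
CPM of the 10 genes in the 24 libraries by dose and time, with a symbol for each replicate number; horizontal bars are means and whiskers SD of 4 libraries. At 24 h the A and B cyclins, *Ccne2*, *Cdk1* and *Cdk2* step down from 0 to 2 Gy without overlap, while the libraries of the D cyclins overlap between doses.

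None of the D cyclins was called in either fit. *Ccnd1*, the member with the highest mean per length (RPKM), was at 1287, 1338, 1338 and 1241 CPM in mock-irradiated cells and at 1318, 1773, 1188 and 1399 CPM after 2 Gy, with a log2 fold change of 0.13 (SE 0.173). *Ccnd2* was at 1375, 1999, 945 and 1241 CPM in controls and at 1222, 2027, 959 and 1063 CPM after 2 Gy, with a log2 fold change of −0.07 (SE 0.310). *Ccnd3* was at 85.3, 82.8, 149 and 92.8 CPM in controls and at 97.2, 109, 135 and 100.2 CPM after 2 Gy, with a log2 fold change of 0.11 (SE 0.211). *Ccnd3* shares 361 bases of exon with *Bysl* and *Ccnd1* shares 1100 with *LTO1*, both on the other strand, at 34.2% and 1.56% of the counts of the member. The groups overlapped for all 3 genes, and within pairs of equal replicate number the log2 differences ran from −0.17 to 0.41 for *Ccnd1*, from −0.22 to 0.02 for *Ccnd2* and from −0.14 to 0.40 for *Ccnd3*. The adjusted p lay between 0.382 and 0.577 with the replicate block. A p above the threshold does not show that their levels stayed the same.

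How far the 7 calls rest on single replicates was read from the blocked fit with each replicate number left out. *Ccna2*, *Ccne2* and *Ccnb1* were called in all 4 of these fits. Without replicate 1 and without replicate 2, the replicate low in microglia markers, only those 3 genes were called, in fits that called 143 of 16026 and 69 of 15956 genes, and without replicate 4 *Cdk1* was called as well, among 245 of 15889 genes. Without replicate 3, all members but *Ccnd2* were called, with *Ccnd1* and *Ccnd3* higher, in a fit that called 5291 of 15986 genes.

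Since D cyclins act in G1 and the A and B cyclins from S phase to mitosis, the families were also set against each other within a library, as the difference of their mean log2 CPM. This measure does not depend on the scaling of libraries. A and B cyclins stood below D cyclins by −4.34, −4.43, −4.61 and −4.49 in mock-irradiated cells at 24 h (replicates 1 to 4) and by −5.41, −5.70, −5.60 and −5.46 after 2 Gy. The irradiated libraries all lay lower, with a mean difference of −1.08 and differences between −1.27 and −0.97 within the 4 pairs. After 0.1 Gy the values were −4.71, −5.04, −4.73 and −4.79, also below every control and above every 2 Gy library. The E cyclins gave the same order, with means of −5.34 ± 0.233, −5.79 ± 0.0784 and −6.55 ± 0.277 (SD, n = 4) relative to D cyclins at 0, 0.1 and 2 Gy. A and B cyclins relative to E cyclins differed little by dose, at 0.87 ± 0.195, 0.97 ± 0.137 and 1.00 ± 0.243, and these groups overlapped. At 6 h the irradiated groups overlapped the controls in these measures. A and B cyclins relative to D cyclins had means of −3.98 ± 0.488, −3.90 ± 0.612 and −4.10 ± 0.305 at 0, 0.1 and 2 Gy. The direction of these differences from controls depended on single libraries. After 2 Gy, −0.11 became 0.13 without mock-irradiated replicate 3. After 0.1 Gy, 0.09 became −0.22 without replicate 3 of the 0.1 Gy group. E cyclins relative to D cyclins were lower after 2 Gy than in controls at 6 h in all 4 pairs, with a mean difference of −0.25. This became −0.11 without mock-irradiated replicate 3 and −0.39 without mock-irradiated replicate 2. In mock-irradiated cells alone, the A and B cyclins also stood lower against D cyclins at 24 h than at 6 h, where the 6 h values were −4.15, −4.29, −3.26 and −4.24. The groups did not overlap, but replicate 3 at 6 h stood apart, and the mean difference of −0.49 became −0.24 without it. Against E cyclins they stood lower by −0.67, also without overlap, and by −0.57 without that library. In counts, *Ccna2* amounted to 2.95% ± 0.289 of *Ccnd1* in mock-irradiated cells at 24 h, to 2.10% ± 0.298 after 0.1 Gy and to 1.06% ± 0.107 after 2 Gy.

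**Figure D3:**
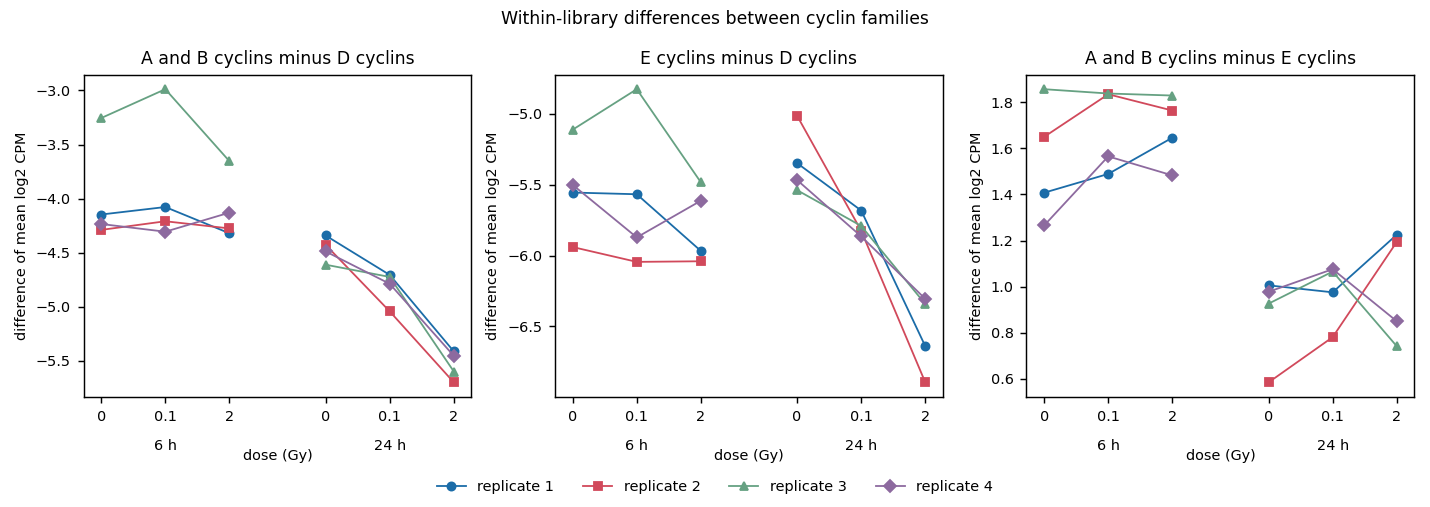
Difference of mean log2 CPM between cyclin families within each library, by dose and time; lines join libraries of equal replicate number. At 24 h A and B cyclins and E cyclins drop against D cyclins in all 4 replicates with each step of dose, and at 6 h replicate 3 lies above the others in the first panel.

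The low dose was compared with the same controls at 24 h. In the unpaired fit no member and no other gene (0% of 16183) was called after 0.1 Gy, while *Ccna2* and *Ccnb1* were the 2 members with an unadjusted p under 0.05, against 1.49% of all genes. The DESeq2 Wald test called none either (0%). With the replicate block 3 members fell, against 6.84% of all genes called and 4.5% called lower: *Ccne2* (log2 fold change −0.69, SE 0.105, adjusted p = 0.0226), *Ccna2* (−0.47, SE 0.0936, adjusted p = 0.0262) and *Ccnb1* (−0.36, SE 0.0934, adjusted p = 0.0381). *Ccna2* was at 29.1, 29.2, 24.7 and 28.5 CPM after 0.1 Gy, all below the lowest control. *Ccnb1* was at 25.6, 29.8, 23.2 and 23.0 CPM and *Ccne2* at 13.8, 19.2, 9.56 and 10.4 CPM; both overlapped the controls as groups but were lower in each of the 4 pairs. The libraries of *Ccnb2*, at 10.6, 11.6, 12.2 and 11.1 CPM, also lay below all controls, with a log2 fold change of −0.19 (SE 0.112, adjusted p = 0.288 with the block). Such separation below the controls held for 2 of the 10 members and for 0.544% of all genes, and 6 of the 10 members were lower in all 4 pairs against 16.2% of all genes. These were the 3 A and B cyclins, the 2 E cyclins and the D cyclin *Ccnd2*, whose pairs differed by −0.44 to −0.12 on the log2 scale. *Ccne1*, the D cyclins, *Cdk1* and *Cdk2* had values between −0.23 and 0.23 on the log2 scale and were not called. In a fit of all 24 libraries with the block, no member and none of 17353 genes was called. The 3 calls were also lost without replicate 2 and without replicate 4, in fits that called 21 of 16155 and 16 of 16212 genes, where the log2 fold change was −0.45 and −0.51 for *Ccna2* and −0.64 and −0.66 for *Ccne2*. *Ccna2* and *Ccne2* stayed called without replicate 1, among 1176 of 16371 genes. Without replicate 3, *Ccnd3* was called as well, as higher, in a fit that called 3728 of 16060 genes, 1835 of them higher.

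The change at 0.1 Gy and that at 2 Gy share their control libraries, so they are given side by side and not as independent results: −0.47 and −1.36 for *Ccna2*, −0.69 and −1.54 for *Ccne2*, −0.36 and −0.90 for *Ccnb1*, −0.19 and −0.80 for *Ccnb2*, −0.21 and −0.76 for *Ccne1*, −0.16 and −0.65 for *Cdk1* and −0.14 and −0.60 for *Cdk2* (log2, replicate block). Compared directly at 24 h, 6 of the 10 members had all 2 Gy libraries below all 0.1 Gy libraries, against 1.06% of all genes. In edgeR fits of these 2 groups alone no member passed the adjusted threshold, either in the unpaired fit (0% of 16002 genes) or with the block, but one fit of all 24 libraries with the block called 6, against 0.916% of all genes. In the unpaired fit 6 had an unadjusted p under 0.05, against 1.34% of all genes, and DESeq2 called 2, against 0.13%. In all 4 pairs 7 of the 10 were lower after 2 Gy, against 7.58% of all genes, and *Ccnd2* was higher in all 4, by 0.02 to 0.22 on the log2 scale with overlapping groups, against 5.59% of all genes. The lowest adjusted p with the block was 0.0639, for *Ccna2* (log2 fold change −0.89, SE 0.0981), followed by 0.0709 for *Ccne2* (−0.85, SE 0.117). With the block but without replicate 3, the A and B cyclins, *Ccne2* and *Cdk1* were called, among 161 of 16092 genes, and without replicate 4 *Ccna2* and *Ccne2*, among 40 of 15934. Without replicate 1 or without replicate 2 no member and no other gene was called.

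**Figure D4:**
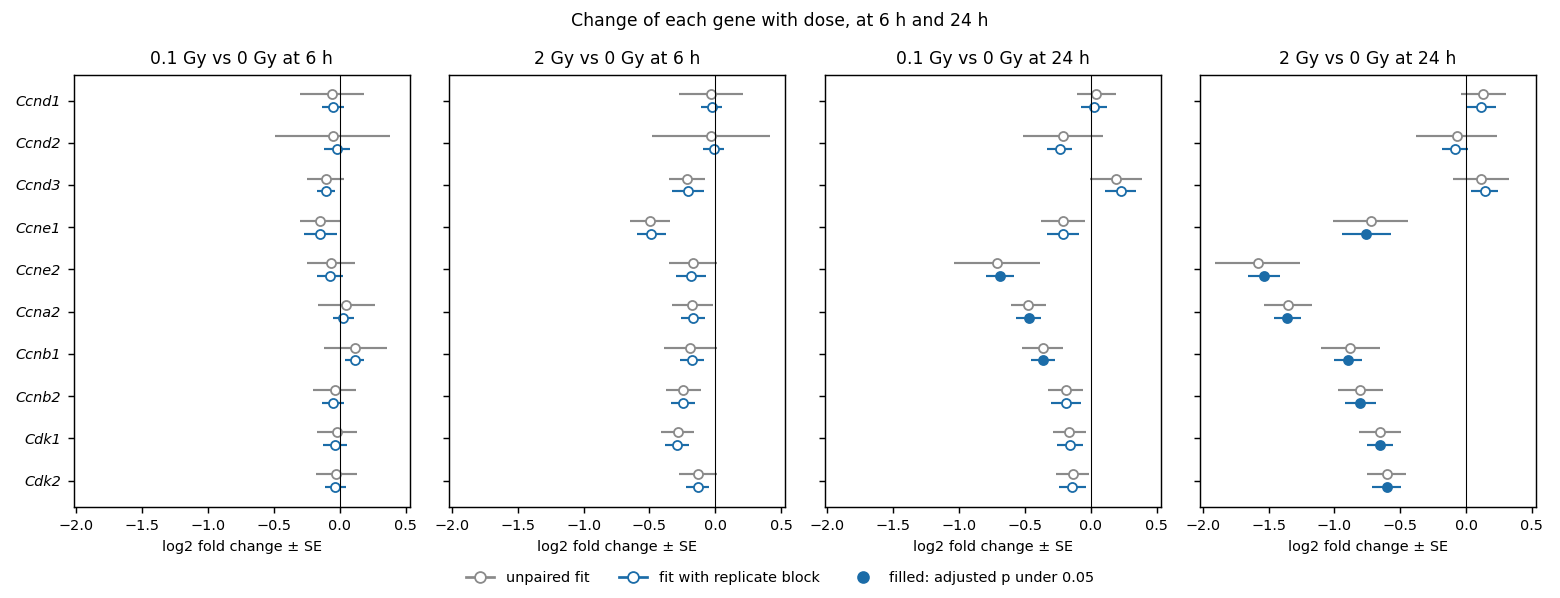
Log2 fold change ± SE of the 10 genes in the 4 comparisons with mock-irradiated cells, from the unpaired fit (grey) and the fit with the replicate block (blue); filled points have an adjusted p under 0.05. Filled points appear at 24 h alone, 3 after 0.1 Gy and 7 after 2 Gy, and none of them is a D cyclin.

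The same doses were compared at 6 h. After 2 Gy no member was called in the unpaired fit (0% of 15994 genes) or with the block, although all 10 log2 fold changes were below 0, with a median of −0.18 against −0.0016 over all genes. An unadjusted p under 0.05 was found for 2 members in the unpaired fit, against 1.34% of all genes, and 5 of the 10 were lower in all 4 pairs, against 8.54%. DESeq2 called none of the 10 and 0.00333% of all genes. *Ccne1* was the member whose groups did not overlap, which held for 0.707% of all genes. It was at 8.97, 8.93, 8.34 and 11.5 CPM in mock-irradiated cells and at 6.61, 6.50, 6.41 and 7.21 CPM after 2 Gy, with a log2 fold change of −0.50 (SE 0.153, adjusted p = 1.00 unpaired, 0.301 with the block). *Cdk1* was at 39.9, 47.1, 47.7 and 44.5 CPM in controls and at 33.6, 42.4, 40.3 and 30.9 CPM after 2 Gy, lower in all 4 pairs, with overlapping groups and a log2 fold change of −0.29 (SE 0.124).

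*Ccna2*, which showed the clear step at 24 h, was at 34.5, 44.8, 49.2 and 33.9 CPM in mock-irradiated cells at 6 h and at 31.2, 43.4, 35.9 and 33.2 CPM after 2 Gy (log2 fold change −0.18, SE 0.156). *Ccne2* was at 12.8, 14.9, 13.1 and 10.4 CPM and at 9.94, 15.2, 10.1 and 10.4 CPM (−0.17, SE 0.185). *Ccna2* was lower in all 4 pairs, by as little as −0.03 on the log2 scale in 1 of them, and *Ccne2* in 2 of 4, and for both genes the groups overlapped. After 0.1 Gy at 6 h no member was called in either fit (0% of 16020 genes), none had an unadjusted p under 0.05 in edgeR (0.15% of all genes) or was called by DESeq2 (0%), and the log2 fold changes ran from −0.15 for *Ccne1* to 0.12 for *Ccnb1*. All groups overlapped, whereas 0.212% of all genes lay below the controls without overlap, and no member was lower in all 4 pairs, against 6.65% of all genes. The 0.1 Gy library of replicate 3 was the highest of all 24 for *Ccna2* (59.3 CPM), *Ccnb1* (58.1 CPM), *Ccnb2* (25.4 CPM) and *Cdk1* (58.8 CPM).

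Whether the response to 2 Gy differed between 6 h and 24 h was tested as an interaction. In the unpaired fit no member was called (0% of 16866 genes), 5 members had an unadjusted p under 0.05 against 4.9% of all genes, and DESeq2 called 1, against 0.0125%. With the replicate block 4 members were called, all with the lower value at 24 h, against 6.78% of all genes called and 3.23% with a lower value at 24 h: *Ccne2* (−1.35, SE 0.169, adjusted p = 0.0114), *Ccna2* (−1.18, SE 0.139, adjusted p = 0.0106), *Ccnb1* (−0.71, SE 0.139, adjusted p = 0.0335) and *Ccnb2* (−0.55, SE 0.146, adjusted p = 0.0437). *Cdk2* and *Cdk1* had values of −0.46 and −0.35 and were not called (adjusted p = 0.0560 and 0.0960 with the block). For *Ccne1* the difference between times was −0.26 (SE 0.225, adjusted p = 0.453 with the block), and its response was thus not shown to differ between 6 h and 24 h. Without replicate 1 or without replicate 2 none of the 4 calls remained, in fits that called 0 of 17030 and 0 of 16592 genes. Without replicate 4 *Ccna2* and *Ccne2* were called, among 138 of 16951 genes, and without replicate 3 the 4 members and *Ccnd3*, which had a higher value at 24 h, among 3951 of 16871. Over these 4 fits the difference lay between −1.20 and −1.15 for *Ccna2* and between −1.44 and −1.14 for *Ccne2*.

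Mock-irradiated cells were compared between the times to see how the genes moved in culture alone. *Ccnb2* fell from 18.7, 22.9, 23.0 and 19.4 CPM at 6 h to 13.6, 12.8, 12.5 and 12.6 CPM at 24 h. The libraries did not overlap, and *Ccnb2* was the 1 member called (log2 fold change −0.72, SE 0.142, adjusted p = 0.0218), against 6.7% of all genes called and 3.46% called lower. Separation below the 6 h libraries held for 7.43% of all genes. *Ccne2* went the other way, from the values of 10.4 to 14.9 CPM given for 6 h to 13.8 to 34.3 CPM at 24 h, with overlapping groups, and was not called (log2 fold change 0.74, SE 0.280, adjusted p = 0.143). With 1 library left out, the log2 fold change of *Ccne2* lay between 0.44 and 0.90. It was called in 1 of these 8 fits, which called from 170 to 2999 genes in all. Its partner gene *Ints8* on the other strand had 0.54 (SE 0.208, adjusted p = 0.148). The other 8 members had log2 fold changes between −0.31 and 0.32 and adjusted p of at least 0.270. As a share of the per-length sum of the A and B cyclins, *Ccnb2* made up 41.7% ± 3.07 at 6 h and 33.1% ± 2.57 at 24 h in mock-irradiated cells (SD, n = 4), while *Ccna2* went from 30.0% ± 0.963 to 36.8% ± 0.623 and *Ccnb1* kept 28.3% ± 2.96 and 30.1% ± 2.19. The call for *Ccnb2* was lost when any of 5 single libraries was left out, namely replicates 1, 2 and 3 at 6 h and replicates 1 and 4 at 24 h. These fits called 170, 822, 279, 194 and 214 genes in all, against 1064 with every library, and over all 8 fits with 1 library left out the log2 fold change of *Ccnb2* lay between −0.76 and −0.66.

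The other genes of the cycle machinery were taken as 6 lists of 58 genes in all, of which *Ccnb3* was not tested. In the unpaired fit none was called after 2 Gy at 24 h. With the replicate block 15 were called, 13 of them lower, against 13.2% of all genes called and 6.69% called lower. Without 1 replicate number this fit called between 69 and 5291 genes in all, and which of the 15 calls stayed is not given here. Among the pocket proteins and E2Fs, 4 of 11 fell and none rose: the repressor genes *E2f8* (log2 fold change −1.45, SE 0.153) and *E2f7* (−1.26, SE 0.145), the pocket protein gene *Rbl1* (−0.9995, SE 0.123) and *Rb1* itself (−0.31, SE 0.0862). The median of this list was −0.27, beside 0.0045 over all genes. Among the ubiquitin ligase parts and inhibitors 3 of 8 fell, *Fbxo5* (−1.44, SE 0.162), which encodes the inhibitor Emi1 of the ligase that destroys cyclins A and B, *Ube2c* (−0.72, SE 0.0992), the E2 enzyme of that ligase, and *Skp2* (−0.68, SE 0.118), which marks the inhibitor p27 for degradation.

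Of the phosphatases, inhibitory kinases and Cks subunits, 3 of 7 fell, *Cdc25c* (−0.79, SE 0.182), a phosphatase that activates Cdk1, and the Cdk-binding subunits *Cks2* (−0.63, SE 0.114) and *Cks1b* (−0.47, SE 0.101). All 7 genes of this list had values below 0. The CDK inhibitors moved both ways: *Cdkn1a*, the p53 target that encodes p21 (0.57, SE 0.0845), and *Cdkn2b* (0.42, SE 0.0949) rose and *Cdkn2c* (−0.38, SE 0.101) fell among 7 genes tested. Of the other cyclins and CDKs of the cell cycle 1 of 6 fell, *Ccnf* (−0.76, SE 0.118), and the partner kinases of the D cyclins, *Cdk4* (−0.01, SE 0.0943) and *Cdk6* (−0.32, SE 0.116, adjusted p = 0.0947), were not called. Among 18 relatives with roles outside the cycle, 1 fell, the splicing-linked *Ccnl1* (−0.39, SE 0.107). After 0.1 Gy at 24 h *Rbl1* (−0.44, SE 0.113), *Fbxo5* (−0.43, SE 0.122) and *Cdk6* (−0.39, SE 0.0999) were the 3 genes of these lists called with the block, all lower, out of 57 tested, against 6.84% of all genes called and 4.5% called lower in that fit. Without 1 replicate number, the 0.1 Gy fit called between 16 and 3728 genes in all, and which of the 3 calls stayed is not given here. At 6 h none was called after either dose with the block, and neither was any other gene (0%).

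The levels of the D cyclins *Ccnd1* and *Ccnd2* also differed by replicate number. *Ccnd2* stood between 1817 and 2035 CPM in the 6 libraries of replicate 2 and between 592 and 1375 CPM in the other 18. *Ccnd1* stood between 1338 and 1773 CPM in replicate 2 and between 890 and 1456 CPM in the others, so that these ranges overlapped. Replicate 2 is also the replicate with 175 to 202 CPM of microglia markers, against at least 1150 CPM in the others, and the part of this difference in the levels of *Ccnd1* and *Ccnd2* was not tested. For *Ccne2* the replicate 2 libraries were the highest of their group at 24 h, at 34.3, 19.2 and 9.27 CPM for 0, 0.1 and 2 Gy, and the step with dose was present in them and in the other 3 replicates alike. Without replicate 2, the blocked fold change of *Ccne2* at 24 h after 2 Gy was −1.41 (SE 0.131, adjusted p = 0.0297), and that of *Ccna2* was −1.37 (SE 0.133, adjusted p = 0.0297).

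**Figure D5:**
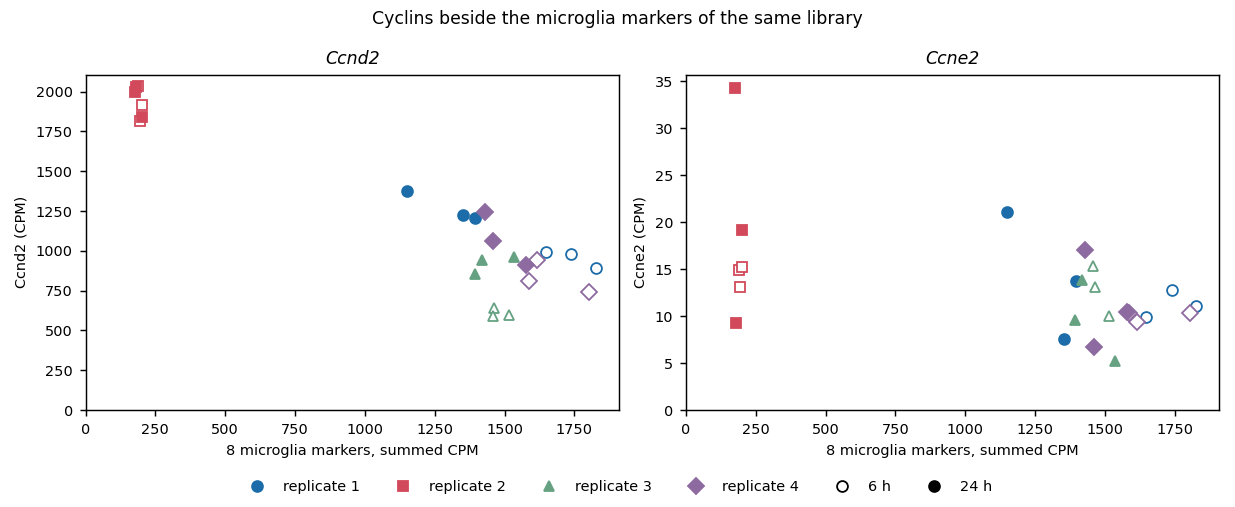
CPM of *Ccnd2* and *Ccne2* against the summed CPM of 8 microglia markers in the same library; symbols give the replicate number, open at 6 h and filled at 24 h. The 6 replicate 2 libraries stand apart at 175 to 202 CPM of markers and at 1817 to 2035 CPM of *Ccnd2*, whereas their *Ccne2* spans 9.27 to 34.3 CPM.

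Across the 24 libraries, which share dose groups, times and replicate numbers, the members fell into groups by their Pearson correlation of log2 CPM, given here as a description. The A and B cyclins and *Cdk1* went together, with r of 0.940 for *Ccna2* and *Ccnb1*, 0.900 for *Ccnb2* and *Cdk1*, and 0.870 for *Ccna2* and *Cdk1*. *Ccnd1* and *Ccnd2* went together with r of 0.825, and *Ccna2* against *Ccnd1* and *Ccnd2* gave −0.195 and −0.0652. *Ccne2* was closer to *Ccna2* (0.731) than to the other E cyclin *Ccne1* (0.415), and *Ccnd3* was close to neither *Ccnd2* (0.0457) nor *Ccna2* (−0.468). Among 14331 genes with a mean of at least 1 CPM, those most like *Ccna2* were *Sgo1*, *Nusap1* and *Tpx2*, each with r of 0.963. Those most like *Ccnb1* were *Cep55* (0.971), *Prc1* (0.953) and *Cenpe* (0.949), and those most like *Ccne2* were *Ect2* (0.913), *Cenpi* (0.911) and *Esco2* (0.891). For *Ccnd1* they were *Mtcl1* (0.883), *Ankrd35* (0.882) and *Klhl8* (0.876).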

How the data were processed

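Gene-level mRNA of 24 libraries was analysed from raw read counts per gene, which the authors deposited as 1 file per library after poly(A) selection and paired-end sequencing, on genome build mm10. The aligner, the counter and the use of strand are not given in the sources used here. Libraries were grouped by the labels (dose and time). CPM were scaled by TMM in edgeR 4.0.16 (R 4.3.3), and RPKM used the gene length in the files. After filterByExpr, edgeR's quasi-likelihood test compared the libraries of each comparison without a block, over all genes passing the filter, with Benjamini-Hochberg adjustment and a threshold of 0.05. SE is the log2 fold change divided by the root of F.

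A second fit adds the replicate number (replicate block) and stands beside it, since deviations from group means correlated at 0.582 to 0.953 between libraries of equal number within a time. Between the times at 0 Gy the correlation was 0.0626 (replicate 3) to 0.853, and the main comparison of the times was left unpaired. The fits of 24 h against 6 h with the block, given as alternatives, do pair libraries of equal number across the times. The labels call the replicates biological repeats. Family differences used log2 CPM with a prior count of 2. Alternatives were DESeq2 1.42.0, other scalings, no filter, a minimum fold change, one fit of all libraries and leaving out each library. DESeq2 was run on all genes with a count, without filterByExpr. Fits of the block with DESeq2, with a correction for GC and length, with a minimum fold change or without a replicate number, and family differences without each library, were added after seeing the data. The fitting steps were tested on simulated data.

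The members and lists were chosen with earlier results of these data known. Named are the 10 members, the genes of the 6 lists that were called in a dose comparison, the 3 genes most alike to each of 4 members, and overlapping genes or copies of members. Also named are cell type markers and the most abundant genes at the ends of their range. *Cdk4* was named as a partner of D cyclins after its values were seen.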

Additional observations from a re-analysis of the deposited data

Results flagged for a closer look

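Of 60 groups of 4 libraries (10 genes in 6 conditions), 4 held a library farther from the rest than Dixon's test allows at 95%, and chance flags about 1 group in 20. *Ccna2* at 24 h after 0.1 Gy was at 24.7 CPM in replicate 3 and at 28.5 to 29.2 CPM in the others. *Ccnd3* in mock-irradiated cells at 24 h was at 149 CPM in replicate 3 and at 82.8 to 92.8 CPM in the others. *Bysl*, which shares exon bases with *Ccnd3* on the other strand, was at 34.9 CPM in that library and at 17.8 to 20.8 CPM in the others, and its part in the *Ccnd3* value was not tested. *Ccne2* at 6 h after 2 Gy was at 15.2 CPM in replicate 2 and at 9.94 to 10.4 CPM in the others. *Cdk1* at 24 h after 0.1 Gy was at 33.1 CPM in replicate 1 and at 34.3 to 34.4 CPM in the others, a narrow range. Of 18 groups of family differences, 1 held such a library: in mock-irradiated cells at 6 h, A and B cyclins relative to D cyclins were at −3.26 (log2) in replicate 3 and at −4.29 to −4.15 in the others.

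The response to 2 Gy differed between 24 h and 6 h by the interaction test with the replicate block for 4 members, by −1.35 for *Ccne2*, −1.18 for *Ccna2*, −0.71 for *Ccnb1* and −0.55 for *Ccnb2* on the log2 scale, against 6.78% of all genes called in that fit and 3.23% with a lower value at 24 h. The unpaired fit called 0 members and 0% of all genes, and without replicate 1 or without replicate 2 the blocked fit called none of them and 0 genes in all. *Ints8*, which shares exon bases with *Ccne2*, had −0.49 (adjusted p = 0.0616 with the block), and its part in the *Ccne2* value was not tested.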

How the results depend on the processing

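The replicate block changed the number of members called at 24 h and in the interaction. For 2 Gy against mock irradiation at 24 h, 0 of the 10 genes were called in the unpaired edgeR fit, 6 by DESeq2, 5 with all 24 libraries in one fit, 7 with the replicate block, with the block and all libraries, with the block in DESeq2 and with the block and a GC and length correction, and 2 (*Ccna2* and *Ccne2*) with the block and a minimum absolute log2 fold change of 1. Over all genes these fits called 0, 103, 108, 2100, 3416, 2320, 564 and 129. For 0.1 Gy at 24 h, 3 members were called with the block in edgeR and in DESeq2, 2 with the block and the GC and length correction, and 0 with the block and all libraries, where 1107, 1766, 298 and 0 genes were called in all. For 2 Gy against 0.1 Gy, 2 were called by DESeq2, 6 with all libraries and the block, 5 with the block in DESeq2 and 5 with the block and the correction, among 39, 159, 109 and 104 genes. For mock-irradiated cells at 24 h against 6 h, the 1 call became 0 with a minimum fold change (with or without the block) or without the filter, 2 with the block in DESeq2, 3 with the block and the correction, and 0 to 2 when single libraries were left out of the unpaired fit, while calls over all genes went from 1064 to 1999 in DESeq2, 2428 with the block, 3092 with the block in DESeq2 and 4219 with the block and the correction. With the block, 4 were called without replicate 3, namely *Ccne2* (0.87), *Cdk1* (−0.31), *Ccnb2* (−0.66) and *Ccnd3* (−0.35), among 7192 genes, and 0 without any other number, where *Ccnd3* was between 0.04 and 0.06. In the interaction, 1 was called by DESeq2, 4 with the block, 2 with the block and a minimum fold change, 5 with all libraries and the block, 5 with the block in DESeq2 and 4 with the block and the correction, among 4, 1143, 203, 2759, 2484 and 402 genes. At 6 h no member was called under these alternatives. The cause of these differences was not tested.

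Changes of sign touched log2 fold changes that were not called, apart from *Ccnd3* between the times with the block. That gene was called at −0.35 without replicate 3 and lay between 0.04 and 0.06 without any other number. With the block and the GC and length correction, the values that changed sign were 0.094 for *Ccnd2* after 2 Gy at 24 h, −0.0049 for *Ccna2* after 0.1 Gy at 6 h, 0.16 for *Ccnd2* in the interaction, and, between the times, 0.062 for *Ccnd1*, 0.063 for *Ccnd3* and 0.13 for *Ccne1*. *Ccnd1* between the times was at 0.00085 with the block and at 0.014 with the block in DESeq2, and *Ccnd2* in the interaction at 0.0031 with library size alone. When single libraries were left out, *Ccnd2* ranged from −0.36 to 0.16 after 2 Gy at 24 h, from −0.46 to 0.44 at 6 h, from −0.50 to 0.011 after 0.1 Gy at 24 h, from −0.45 to 0.43 at 6 h, from −0.15 to 0.43 for 2 Gy against 0.1 Gy and from −0.52 to 0.38 in the interaction. *Ccnd1* ranged from −0.18 to 0.12 after 2 Gy at 6 h, from −0.088 to 0.11 after 0.1 Gy at 24 h, from −0.20 to 0.11 at 6 h, from −0.047 to 0.22 for 2 Gy against 0.1 Gy and from −0.19 to 0.14 between the times. After 0.1 Gy at 6 h the ranges were −0.15 to 0.16 for *Ccna2*, −0.048 to 0.24 for *Ccnb1*, −0.15 to 0.058 for *Ccnb2*, −0.19 to 0.042 for *Ccne2*, −0.18 to 0.049 for *Cdk1* and −0.14 to 0.0598 for *Cdk2*. Between the times they were −0.17 to 0.0018 for *Ccna2*, −0.26 to 0.081 for *Ccnd3* and −0.12 to 0.0703 for *Ccne1*. The lowest count of a member in a library was 55, for *Ccne1*, followed by 96 for *Ccnb2*.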
